A study of Arabidopsis thaliana with 12 samples.

Results

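The dehydrins are a family of plant stress proteins, and the 7 members described here are *COR47* (AT1G20440), *ERD10* (AT1G20450), *ERD14* (AT1G76180), *LTI30* (AT3G50970), *RAB18* (AT5G66400), *XERO1* (AT3G50980) and *HIRD11* (AT1G54410). They are listed by locus, and all 7 were found among the 33557 genes measured. The family was chosen with earlier results of these data known. Their RNA was measured by RNA-Seq in whole seedlings of *bli ire1a*, *bli ire1b*, *bli* and WT, in 12 libraries, 3 for each genotype. All plants were in the Columbia background, were grown under normal conditions and were 12 days old by the sample labels, although the methods of the study give another age. The *bli* mutant carries the homozygous T-DNA allele *bli-1*, and each double mutant carries *bli-1* together with a homozygous T-DNA insertion in *IRE1A* or *IRE1B*. Every mutation was therefore represented by 1 insertion line, and no *ire1a* or *ire1b* single mutant was among the libraries, so an effect of either insertion was seen only in plants that also lacked normal BLI. Values are FPKM, that is, fragment numbers scaled by the length of the transcript and the mapped fragments of the library.

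Dehydrins belong to the late embryogenesis abundant (LEA) proteins, which accumulate in drying seeds and, in leaves and roots, during cold, drought and salt stress. They are largely unstructured, and they share the K segment, a lysine-rich stretch that can bind membranes. In vegetative tissue their genes are switched on by abscisic acid (ABA) through ABF factors, which bind the ABRE element, and by cold and drought through CBF and DREB factors, which bind the DRE element. BLI (BLISTER) is a coiled-coil protein needed for normal shoot growth, and IRE1A and IRE1B are kinases and ribonucleases of the endoplasmic reticulum that signal when unfolded proteins build up there.

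The K segment is shown first because it defines the family. Each line gives 39 bases of coding sequence, 5′ to 3′, from the RefSeq annotation of TAIR10.1, and the capitals mark the 24 bases that encode the 8 core residues of the K segment nearest the end of the protein.
COR47: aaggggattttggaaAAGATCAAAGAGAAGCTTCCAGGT
ERD10: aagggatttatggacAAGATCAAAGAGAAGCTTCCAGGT
ERD14: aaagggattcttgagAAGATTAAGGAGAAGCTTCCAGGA
LTI30: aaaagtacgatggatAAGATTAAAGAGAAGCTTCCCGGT
RAB18: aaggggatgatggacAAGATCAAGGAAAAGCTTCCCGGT
XERO1: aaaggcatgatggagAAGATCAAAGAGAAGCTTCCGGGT
The 6 core stretches encode the same residues and differ only at silent positions, and those of *COR47* and *ERD10* are the same base for base. With up to 2 residues allowed to differ, the core occurs 4 times in *LTI30*, 3 times in *COR47* and 2 times each in *ERD10*, *ERD14*, *RAB18* and *XERO1*. *HIRD11*, a small histidine-rich dehydrin that binds metal ions, gave 0 matches under this rule in its 98 residues, the shortest protein of the 7. A K segment that differs from the core at more than 2 residues would be missed by this rule.

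Some genes of the family lie in tandem. *COR47* (chromosome 1, 7084409 to 7086873, minus strand) and *ERD10* (chromosome 1, 7087903 to 7089606, minus strand) are 1029 bases apart, and *LTI30* (chromosome 3, 18940643 to 18941611, plus strand) and *XERO1* (chromosome 3, 18941925 to 18942940, plus strand) are 313 bases apart. The longest stretch that *COR47* and *ERD10* transcripts share without a mismatch is 32 bases, the longest of any pair of members. Their aligned coding bases are 82.31% identical, and whether fragments were assigned to the wrong gene of the pair was not tested. *RAB18* (chromosome 5, 26518277 to 26519447, minus strand) overlaps by 11 bases the gene *PLP3b*, which runs on the opposite strand. Whether strand was used in counting is not given in the sources used here, but *PLP3b* lay between 29.0 and 34.6 FPKM in all 12 libraries and was not called in any comparison (limma adjusted p of 0.571 or more).

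The sequence before the start codon was searched for the DRE core CCGAC and the ABRE core ACGTG on both strands, over 500 bases, because these are the elements named above. The DRE core was found in 4 of 7 dehydrins, namely *COR47*, *ERD10*, *LTI30* and *RAB18*, and in 23.36% of 27443 annotated genes. The ABRE core was found in 6 of 7, all but *ERD10*, and in 34.88% of the genes. Stretches of *LTI30*, *ERD10* and *RAB18* are shown, as the members with the most DRE cores and the largest changes below, with the cores in capitals. The *LTI30* line holds the 200 bases before the annotated gene start (chr3:18940443-18940642, plus strand), with 3 DRE cores, of which those written GTCGG are read on the other strand. The *ERD10* line (chr1:7089371-7089395, minus strand) holds a run of 3 DRE cores that overlap each other, and only the first is in capitals. The *RAB18* lines hold its ABRE core nearest the start codon (chr5:26519366-26519390, minus strand), written CACGT as the reverse complement, and its DRE core (chr5:26519345-26519369, minus strand).
LTI30: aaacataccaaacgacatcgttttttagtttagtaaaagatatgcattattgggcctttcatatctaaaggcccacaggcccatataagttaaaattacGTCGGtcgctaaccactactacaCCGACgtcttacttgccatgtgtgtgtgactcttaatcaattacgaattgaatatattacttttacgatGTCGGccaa
ERD10: tattcatccaCCGACcgaccgacgt
RAB18 ABRE: taaatacgaaCACGTatggcgaaac
RAB18 DRE: aaacaccacgCCGACattttctgct
The *RAB18* cores lie 227 and 206 bases before the start codon, those of *ERD10* 278, 274 and 270 bases before it, and those of *LTI30* 283, 260 and 191 bases before it. *COR47* holds 1 DRE core, 268 bases before its start codon, whereas *ERD14*, *XERO1* and *HIRD11* hold none. The annotated gene start lies 1209 bases before the start codon in *COR47*, 499 in *ERD10*, 294 in *RAB18* and 182 in *LTI30*. The DRE cores of *COR47*, *ERD10* and *RAB18* and the *RAB18* ABRE core shown therefore lie inside the annotated genes. The 500 bases searched lay wholly inside the annotated gene for *COR47* and almost wholly for *ERD10*. The lack of an ABRE core in *ERD10* therefore says nothing of the bases before its gene start, which were hardly searched. Only the DRE cores of *LTI30* lie before the gene start. The other ABRE cores of *RAB18* lie in the neighbouring gene *PLP3b*. A match of 5 letters is common in a genome, and no factor was measured on these sequences.

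The libraries summed to between 972215 and 1098800 FPKM, and the depth in reads is not part of the table used. Every WT library summed to 1049857 FPKM or more and every mutant library to 1022349 FPKM or less. Values were used as deposited and not scaled to a common sum, which bears on small differences from WT. The worth of a single fragment in FPKM, which shrinks with depth and was read from genes at very low levels, was 0.556 to 1.07 times that in WT replicate 1. The RNA of each mutated gene was low where its insertion was present, with *IRE1A* at 4.45 to 5.68 FPKM in *bli ire1a* and 15.0 or more in the other 9 libraries, and *IRE1B* at 4.56 to 5.34 FPKM in *bli ire1b* and 9.21 or more elsewhere. Fragments of BLI were still counted in the mutants, at 8.94 to 13.4 FPKM in the 9 libraries with *bli-1* and 16.8 to 17.7 FPKM in WT. Summed seed storage and oil body markers, 8 genes that would report late seeds among the seedlings, reached at most 10.6 FPKM in any mutant library and 50.0 FPKM in 1 of 3 WT libraries, replicate 1. Leaf mesophyll markers were abundant in every library, and all 5 fell in *bli* relative to WT by limma, against 17% of all genes tested. WT replicate 2 stood apart from the other WT libraries in stress genes, and results that rest on it are given with and without it. RNA came from whole seedlings, so fewer cells of a type and less RNA per cell cannot be told apart.

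The 7 dehydrins were expressed at very different levels. *HIRD11* was the most abundant, with 3247 ± 84.8 FPKM in *bli ire1a*, 3572 ± 202 in *bli ire1b*, 3641 ± 293 in *bli* and 3048 ± 107 in WT (SD, n = 3 each), and its rank among the 33557 genes was 12 in *bli* and 37 in WT. *COR47* and *ERD14* followed in every genotype, *ERD10* and *LTI30* came next, and *RAB18* was at most 23.5 FPKM. In WT the means were 801 ± 155 FPKM for *COR47*, 642 ± 131 for *ERD14*, 388 ± 156 for *ERD10*, 169 ± 13.2 for *LTI30* and 18.7 ± 7.33 for *RAB18* (SD, n = 3 each). *COR47* and *ERD14* were neighbours whose WT libraries overlapped, whereas no WT library of *LTI30* reached the lowest one of *ERD10*. *XERO1*, known mainly from seeds, was at most 0.504 FPKM in any library.

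The summed level of the family differed less between genotypes than its members did. It was 4684 ± 103 FPKM in *bli ire1a*, 4568 ± 255 in *bli ire1b*, 4918 ± 282 in *bli* and 5067 ± 409 in WT (SD, n = 3 each), and the ranges of *bli* and WT overlapped. These values were not scaled to the library sums, which were higher in WT, so the order of *bli* and WT is not settled. *HIRD11* alone made up 69.3% ± 1.65 of the family sum in *bli ire1a*, 78.2% ± 0.778 in *bli ire1b*, 74.0% ± 2.75 in *bli* and 60.4% ± 5.97 in WT (SD, n = 3 each). Without *HIRD11* the sum was 1437 ± 92.1 FPKM in *bli ire1a*, 996 ± 67.4 in *bli ire1b*, 1277 ± 120 in *bli* and 2019 ± 451 in WT (SD, n = 3 each). Every mutant library was then below every WT library, and the *bli ire1b* libraries were below all others.

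**Figure D1:**
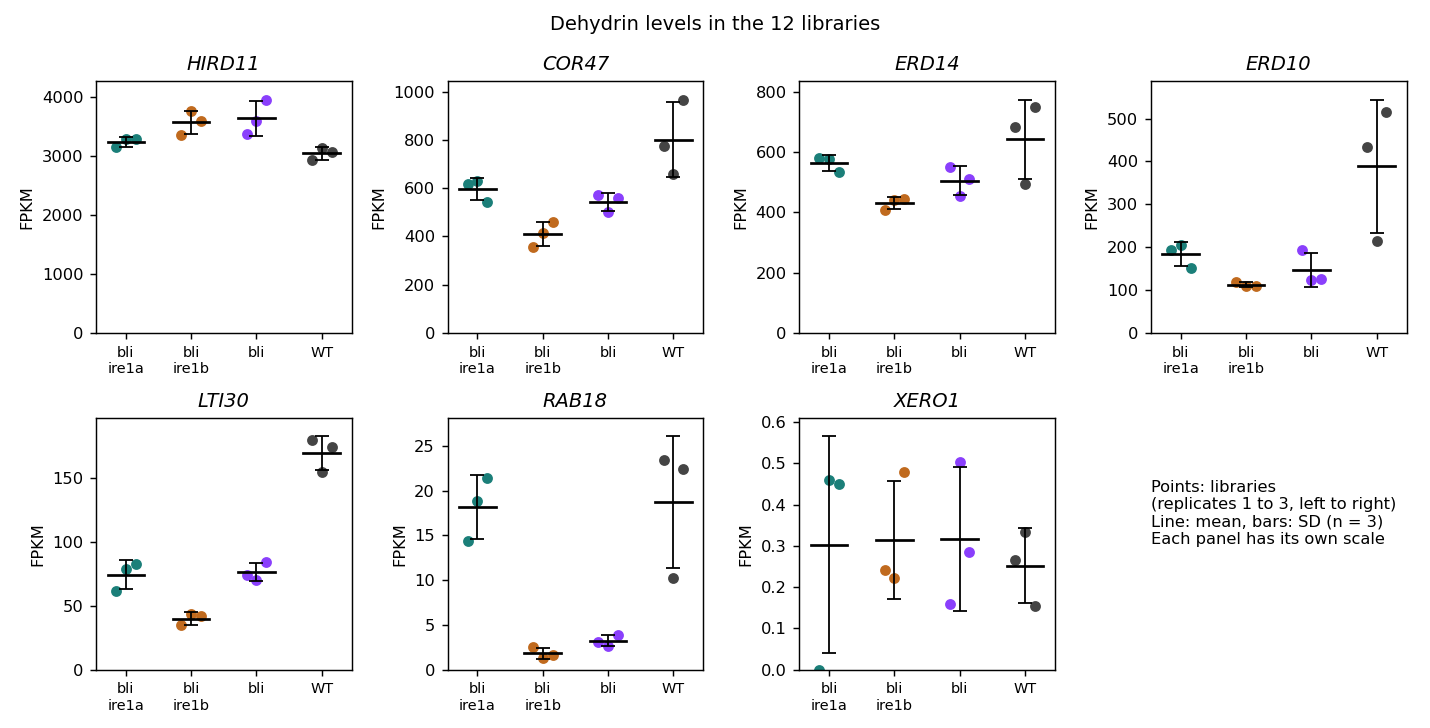
FPKM of the 7 dehydrins in the 12 libraries, 1 panel per gene with its own scale, with points for libraries, lines for means and bars for the SD (n = 3). *RAB18* sits at 14.4 to 21.4 FPKM in *bli ire1a* and at 1.37 to 3.87 FPKM in *bli ire1b* and *bli*, *LTI30* is lowest in *bli ire1b*, and *HIRD11* is the only abundant member that is not lower in the mutants than in WT.

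Most dehydrins were lower in *bli* than in WT, and the direction was not shared by *HIRD11*. Of the 6 members tested, those averaging 0.5 FPKM or more over all libraries, 4 fell in *bli* relative to WT at a limma adjusted p of at most 0.05 (*COR47*, *ERD10*, *LTI30* and *RAB18*), against 17% of the 20645 genes tested, and 1 rose (*HIRD11*), against 17.3% of all. Their median log2 fold change was -0.85, where that of all genes tested was -0.01. In *bli ire1a* relative to WT, 2 of 6 fell (*ERD10* and *LTI30*), against 7.87% of all genes, and 0 rose (also 0 at an unadjusted p of at most 0.05), against 7.17%, with a median log2 fold change of -0.29 and 0.01 over all genes. In *bli ire1b* relative to WT, 5 of 6 fell, against 20.1%, and 1 rose, against 19.1%, with a median log2 fold change of -1.33 and 0.00 over all genes. These 3 comparisons share the WT libraries and are not independent of each other.

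The double mutants were also compared with *bli* and with each other. In *bli ire1a* relative to *bli*, 1 of 6 dehydrins rose by limma (*RAB18*), against 6.62% of all genes, and 0 of 6 fell, against 7.65%, with 1 lower at an unadjusted p of at most 0.05 (*HIRD11*). In *bli ire1b* relative to *bli*, 1 of 6 fell by limma (*LTI30*), against 3.25%, and 0 of 6 rose, against 1.1%, with 0 higher at an unadjusted p of at most 0.05 either. All 6 fitted values were below 0 there, with a median log2 fold change of -0.39 and 0 over all genes. The share of all genes below 0 was not computed. The value of *HIRD11* was near 0 and changed sign in 3 of 22 alternatives. In *bli ire1a* relative to *bli ire1b*, 3 of 6 were higher by limma (*COR47*, *LTI30* and *RAB18*), against 7.45%, and 0 of 6 lower, against 5.3%, with 0 lower at an unadjusted p of at most 0.05 either. These counts describe 6 genes and are not a test of the family.

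**Figure D2:**
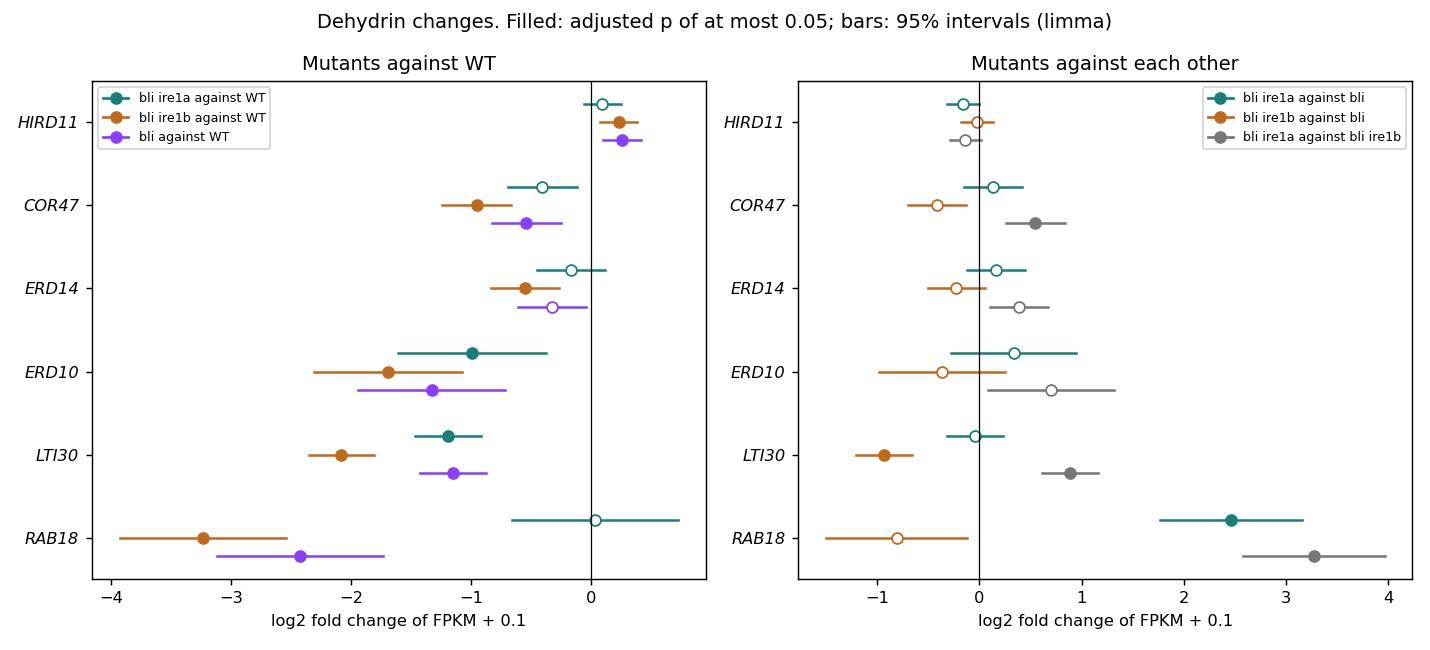
Log2 fold change of FPKM + 0.1 for the 6 dehydrins tested, with 95% intervals from limma, for the mutants against WT (left) and for the mutants against each other (right), filled where the adjusted p is at most 0.05. *RAB18* has the widest spread between genotypes, from 0.03 in *bli ire1a* to -3.24 in *bli ire1b* against WT, and all members but *HIRD11* lie lowest in *bli ire1b*.

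*RAB18*, an ABA-responsive dehydrin found in guard cells and seeds, had the largest difference between the double mutants of the 6 members tested. It had 14.4, 18.8 and 21.4 FPKM in *bli ire1a* and 3.10, 2.67 and 3.87 FPKM in *bli*. The WT libraries had 23.5, 10.3 and 22.4 FPKM. The *bli ire1a* libraries were all above the *bli* libraries and overlapped with WT, and every *bli* library was below every WT library. *RAB18* rose in *bli ire1a* relative to *bli* by 2.46 on the log2 scale, a 5.51-fold change (SE 0.31, limma adjusted p = 0.000645). Relative to WT it fell by 2.43 in *bli*, to 18.6% of WT (SE 0.31, limma adjusted p = 0.000164). The difference between *bli ire1a* and WT was 0.03, with a 95% interval from -0.66 to 0.72 (limma adjusted p = 0.963), an interval that also holds moderate changes in either direction.

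In *bli ire1b*, *RAB18* had 2.51, 1.37 and 1.61 FPKM. All 3 libraries were below the lowest *bli* library, but the fitted difference of -0.81 relative to *bli* did not pass (SE 0.31, 95% interval -1.50 to -0.12, limma adjusted p = 0.173). Relative to WT, *RAB18* fell by 3.24 in *bli ire1b*, to 10.6% of WT (SE 0.31, limma adjusted p = 2.05e-05), the largest of the dehydrin changes relative to WT. Set directly against *bli ire1b*, *bli ire1a* was higher by 3.27, a 9.65-fold difference (SE 0.31, limma adjusted p = 0.000132). WT replicate 2 was the low WT library for *RAB18*, and without it the fall was 2.81 in *bli* and the difference between *bli ire1a* and WT was -0.35 (limma adjusted p = 0.4). The 4 *RAB18* calls held under all 22 alternatives.

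Guard cell markers moved with *RAB18* in part. The summed FPKM of *FAMA*, *MYB60* and *SLAC1*, 2 transcription factors and an anion channel of guard cells, was 24.9 to 28.2 in *bli ire1a*, 20.6 to 21.3 in *bli ire1b*, 14.7 to 19.0 in *bli* and 35.4 to 38.1 in WT. All 3 markers fell in *bli* relative to WT, against 17% of all genes, and rose in *bli ire1a* relative to *bli*, against 6.62%. Their log2 fold changes were 0.49 to 1.23 in the second comparison, where *RAB18* changed by 2.46. In *bli ire1b* the marker sums were above those of *bli*, whereas *RAB18* was at its lowest. The order of *bli*, *bli ire1a* and WT was not particular to guard cells. Leaf mesophyll markers summed to 48242 to 51946 FPKM in *bli*, 54866 to 60416 in *bli ire1a* and 68352 to 74713 in WT. Of these 5 markers, 1 rose in *bli ire1a* relative to *bli* by limma. The part of guard cells in the *RAB18* levels was not tested.

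*LTI30*, a cold-induced dehydrin built of K segments, was the only member with a called difference between *bli ire1b* and *bli*. It had 34.6, 43.7 and 41.7 FPKM in *bli ire1b*, against 74.3, 70.2 and 84.0 FPKM in *bli*. WT had 179, 154 and 174 FPKM. The 3 genotypes did not overlap, with *bli ire1b* lowest and WT highest. *LTI30* fell in *bli ire1b* relative to *bli* by 0.93 on the log2 scale, to 52.5% of *bli* (SE 0.12, limma adjusted p = 0.00398). Relative to WT it fell by 1.15 in *bli* (SE 0.12, limma adjusted p = 4.79e-05) and by 2.08 in *bli ire1b*, to 23.6% of WT (SE 0.12, limma adjusted p = 1.13e-06).

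In *bli ire1a*, *LTI30* was near the *bli* level. The *bli ire1a* libraries had 61.4, 78.8 and 83.0 FPKM and overlapped with *bli*, with a difference of -0.04 (95% interval -0.31 to 0.23, limma adjusted p = 0.867). They remained below every WT library, and the fall relative to WT was 1.19 (SE 0.12, limma adjusted p = 0.00027). Between the double mutants *LTI30* was higher in *bli ire1a* by 0.89 (SE 0.12, limma adjusted p = 0.00142). *LTI30* was therefore below WT in the genotype in which the *RAB18* libraries overlapped with WT. All *LTI30* calls held when any 1 library was left out and under every other setting apart from the fold cutoff of the study.

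The tandem genes *COR47* and *ERD10*, acidic dehydrins of cold and drought, were lower in all mutants by fitted value. *COR47* had 617, 628 and 545 FPKM in *bli ire1a*, 357, 414 and 458 FPKM in *bli ire1b* and 570, 502 and 560 FPKM in *bli*. WT had 775, 660 and 966 FPKM. No mutant library reached the lowest WT library, and the *bli ire1b* libraries were below all others. *COR47* fell in *bli* by 0.54 (SE 0.13, limma adjusted p = 0.0079) and in *bli ire1b* by 0.96, to 51.5% of WT (SE 0.13, limma adjusted p = 0.000197). In *bli ire1a* the difference of -0.41 from WT missed the threshold (95% interval -0.70 to -0.12, limma adjusted p = 0.0578).

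Between the double mutants, *COR47* was higher in *bli ire1a* by 0.55 (SE 0.13, limma adjusted p = 0.0202). This call was lost without *bli ire1a* replicate 1 or 2 (limma adjusted p = 0.0643 and 0.0745) and without *bli ire1b* replicate 1 or 2 (limma adjusted p = 0.0834 and 0.0525). The difference between *bli ire1b* and *bli* was -0.42 and was not called (limma adjusted p = 0.103), although the libraries did not overlap. Without WT replicate 2, the lowest of the WT libraries, the difference of *COR47* between *bli ire1a* and WT was -0.54 and passed (limma adjusted p = 0.0195).

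*ERD10* had 194, 206 and 152 FPKM in *bli ire1a*, 120, 109 and 109 FPKM in *bli ire1b* and 194, 123 and 127 FPKM in *bli*. WT had 434, 215 and 516 FPKM. All mutant libraries were below all WT libraries, but WT replicate 2 lay closer to the mutants than to the other WT libraries. *ERD10* fell in *bli* by 1.33, to 39.8% of WT (SE 0.28, limma adjusted p = 0.00357), and in *bli ire1b* by 1.69, to 30.9% of WT (SE 0.28, limma adjusted p = 0.000694). Both calls held under every alternative, with a fall of 1.71 in *bli* and 2.07 in *bli ire1b* without WT replicate 2.

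The fall of *ERD10* by 1.00 in *bli ire1a* relative to WT depended on single libraries (SE 0.28, limma adjusted p = 0.0345). It missed the threshold without *bli ire1a* replicate 1, 2 or 3 (limma adjusted p = 0.0779, 0.0586 and 0.114), without WT replicate 1 or 3 (0.125 and 0.118) and without *bli ire1b* replicate 1, 2 or 3 (0.0502, 0.0516 and 0.0516), and also in a fit of only the 2 genotypes (0.123) or without the mean-variance trend (0.0582). It was stronger without WT replicate 2, at 1.38 (limma adjusted p = 0.00252). *ERD10* was not called between either double mutant and *bli*, with 95% intervals from -0.28 to 0.95 for *bli ire1a* and from -0.98 to 0.25 for *bli ire1b*. Between the double mutants the difference of 0.70 was not called (limma adjusted p = 0.128), but it was without WT replicate 2 (limma adjusted p = 0.0255). That library enters this comparison only through the shared estimate of the spread, so the difference itself was unchanged.

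*ERD14*, an acidic dehydrin with chaperone activity, changed least among those that were lower. It had 582, 578 and 532 FPKM in *bli ire1a*, 409, 442 and 444 FPKM in *bli ire1b* and 551, 454 and 512 FPKM in *bli*. WT had 684, 495 and 748 FPKM. Only the *bli ire1b* libraries were all below the WT libraries, and both other mutants overlapped with WT through WT replicate 2. *ERD14* fell in *bli ire1b* by 0.55, to 68.2% of WT (SE 0.13, limma adjusted p = 0.00581). The differences from WT were -0.33 in *bli* (limma adjusted p = 0.0702) and -0.17 in *bli ire1a* (limma adjusted p = 0.43). Without WT replicate 2 they were -0.51 in *bli* (limma adjusted p = 0.00167) and -0.34 in *bli ire1a* (limma adjusted p = 0.0285), and both passed. The difference of 0.39 between *bli ire1a* and *bli ire1b* was not called either (limma adjusted p = 0.0744), but it was without WT replicate 2 (limma adjusted p = 0.0108). Here too only the shared estimate of the spread had changed, not the difference.

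*HIRD11* went the other way by a small margin. It had 3149, 3292 and 3299 FPKM in *bli ire1a*, 3358, 3759 and 3599 FPKM in *bli ire1b* and 3379, 3588 and 3957 FPKM in *bli*. WT had 2933, 3144 and 3067 FPKM. Every mutant library was above every WT library. *HIRD11* rose in *bli* by 0.25, to 119% of WT (SE 0.07, limma adjusted p = 0.0165), and in *bli ire1b* by 0.23, to 117% of WT (SE 0.07, limma adjusted p = 0.0243). In *bli ire1a* the difference was 0.09 (95% interval -0.06 to 0.25, limma adjusted p = 0.431). The call in *bli* was lost without *bli* replicate 3 (limma adjusted p = 0.0687) or WT replicate 1 (0.0611), and that in *bli ire1b* without *bli ire1b* replicate 2 or 3 (0.0972 and 0.0686) or WT replicate 1 or 3 (0.0831 and 0.0616). Both calls were also lost with no filter on low values (limma adjusted p = 0.0669 in *bli* and 0.0882 in *bli ire1b*) and with only the 2 genotypes in the fit (0.0898 and 0.0793). Quantile normalization, which changes the highest values most, gave 0.44 in *bli ire1a*, which then passed (limma adjusted p = 0.00472), 0.69 in *bli ire1b* and 0.79 in *bli*.

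*XERO1* was too low to compare. It had 0, 0.459 and 0.450 FPKM in *bli ire1a*, 0.242, 0.223 and 0.478 FPKM in *bli ire1b*, 0.158, 0.504 and 0.286 FPKM in *bli* and 0.267, 0.334 and 0.155 FPKM in WT. All genotypes overlapped, and a library listed at 0 may hold a failed estimate. With no filter on low values its adjusted p from limma ranged from 0.782 to 1 over the 6 comparisons, with 95% intervals more than 2 log2 units wide, so a change was not detectable at this depth. Its neighbour *LTI30*, 313 bases away, was measured at 34.6 FPKM or more in every library. The other 3 dehydrin genes of the list used here were also low. AT4G39130 was listed at 0 in every library, AT2G21490 reached at most 0.466 FPKM, and AT4G38410 ranged from 1.17 to 6.67 FPKM. AT4G38410 was the only one of them tested, and it rose in *bli ire1a* relative to WT by 1.51 (SE 0.42, limma adjusted p = 0.033), with 3.79, 4.80 and 6.67 FPKM in *bli ire1a* and 1.17, 1.46 and 2.71 FPKM in WT. This call was lost without WT replicate 2, at 1.42 (limma adjusted p = 0.0837).

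The stress genes around the dehydrins were counted in the same way, to place the members among genes with which they are usually induced. Of 9 tested genes for other LEA proteins, 3 fell and 1 rose in *bli* relative to WT, against 17% and 17.3% of all genes. Their median log2 fold change was -1.07. The log2 fold change was -3.10 for *COR15A*, which protects chloroplast membranes in the cold (SE 0.58, limma adjusted p = 0.00186), -2.28 for *LEA7* (SE 0.59, limma adjusted p = 0.0116) and -2.19 for *COR15B* (SE 0.50, limma adjusted p = 0.00574). *SAG21*, a LEA protein of senescence and oxidative stress, rose by 1.43 (SE 0.14, limma adjusted p = 2.75e-05). Of the same 9 genes, 1 fell and 0 rose by limma in *bli ire1a* relative to *bli*, against 7.65% and 6.62% of all genes. At an unadjusted p of at most 0.05 from limma, 2 were lower and 1 higher. In *bli ire1b* relative to *bli*, 0 of 9 fell and 0 rose, against 3.25% and 1.1% of all genes. There 0 were lower and 1 higher at an unadjusted p of at most 0.05 from limma.

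Of 10 tested genes of the CBF cold pathway, 7 fell and 1 rose in *bli* relative to WT, against 17% and 17.3% of all. Their median log2 fold change was -2.13. The log2 fold change was -4.01 for *GOLS3*, a galactinol synthase induced by cold (SE 0.38, limma adjusted p = 1.87e-05), and -2.87 for the factor *CBF3* (SE 0.49, limma adjusted p = 0.00104). It was -2.74 for *KIN1* (SE 0.32, limma adjusted p = 8.04e-05) and -2.56 for *COR413IM1*, a chloroplast membrane protein (SE 0.26, limma adjusted p = 3.41e-05). Of these 10 genes, 5 rose and 0 fell by limma in *bli ire1a* relative to *bli*, against 6.62% and 7.65% of all genes. At an unadjusted p of at most 0.05 from limma, 1 was lower. Among those that rose were *COR413IM1* by 1.79, *GOLS3* by 1.39 and *KIN1* by 1.23. Of the 4 dehydrins with DRE cores, *RAB18* rose there by 2.46, and *COR47*, *ERD10* and *LTI30* were not called, at 0.13, 0.33 and -0.04. In *bli ire1b* relative to *bli*, 1 of 10 fell and 0 rose by limma, against 3.25% and 1.1% of all genes. There 2 were lower and 0 higher at an unadjusted p of at most 0.05 from limma.

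Of 18 tested genes of ABA synthesis, signalling and response, 7 fell and 2 rose in *bli* relative to WT, against 17% and 17.3% of all. Their median log2 fold change was -0.52. The log2 fold change was -2.09 for *NCED3*, which catalyses the rate-limiting step of ABA synthesis (SE 0.65, limma adjusted p = 0.0277), -1.20 for the phosphatase *ABI2* (SE 0.25, limma adjusted p = 0.00363) and -1.09 for the factor *ABF3* (SE 0.14, limma adjusted p = 0.000181). *RD22*, a gene of dehydration, fell to 46.7% of WT (limma adjusted p = 0.000124). Where *RAB18* rose, in *bli ire1a* relative to *bli*, 0 of 18 fell and 0 rose by limma, against 7.65% and 6.62% of all genes. At an unadjusted p of at most 0.05 from limma, 0 were lower and 6 higher. *NCED3* had 2.63, 3.25 and 3.44 FPKM in *bli ire1a* and 1.91, 0.382 and 0.758 FPKM in *bli*. Those libraries did not overlap, and the fitted difference of 1.76 missed the threshold (limma adjusted p = 0.0969).

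WT replicate 2 moved these lists as well as the dehydrins. It had 1.12 FPKM of *NCED3* and 58.3 FPKM of *RD29A*, against 6.77 or more and 202 or more in the other WT libraries. Without it, 11 of 18 ABA genes, 8 of 10 CBF pathway genes and 5 of 9 other LEA genes fell in *bli* relative to WT. In *bli ire1a* relative to *bli*, 2, 5 and 1 of the genes of these lists then rose, and 0, 0 and 2 fell. *NCED3* was then among those that rose (limma adjusted p = 0.0195), at an unchanged difference of 1.76. No WT library enters that difference, and only the shared estimate of the spread had changed. Relative to WT, 6 ABA genes fell in *bli ire1a* without that library and 3 with it, and 3 other LEA genes fell without it and 0 with it. The 3 guard cell markers were called in *bli* relative to WT with and without it, whereas in *bli ire1a* relative to WT 2 were lower with it and 0 without it. The share of all genes called without WT replicate 2 was not computed, so the counts without it have no background beside them.

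**Figure D3:**
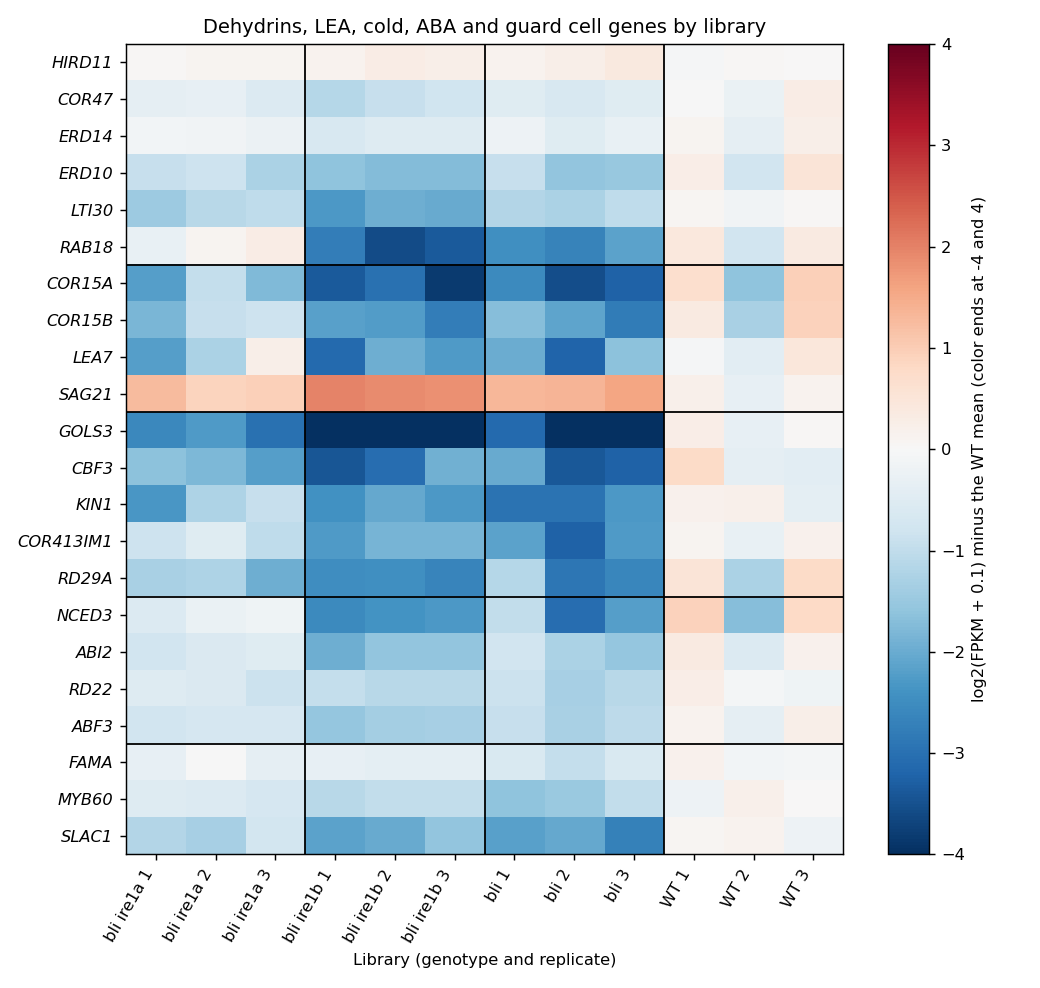
Log2(FPKM + 0.1) minus the WT mean for 6 dehydrins (top block), other LEA genes, CBF pathway genes, ABA genes and guard cell markers in each of the 12 libraries, with blue below and red above the WT mean and colours ending at -4 and 4. WT replicate 2 is pale blue in *ERD10*, *RAB18*, *COR15A*, *RD29A* and *NCED3*, and the *RAB18* row is close to the WT mean in *bli ire1a* only among the mutants.

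**Figure D4:**
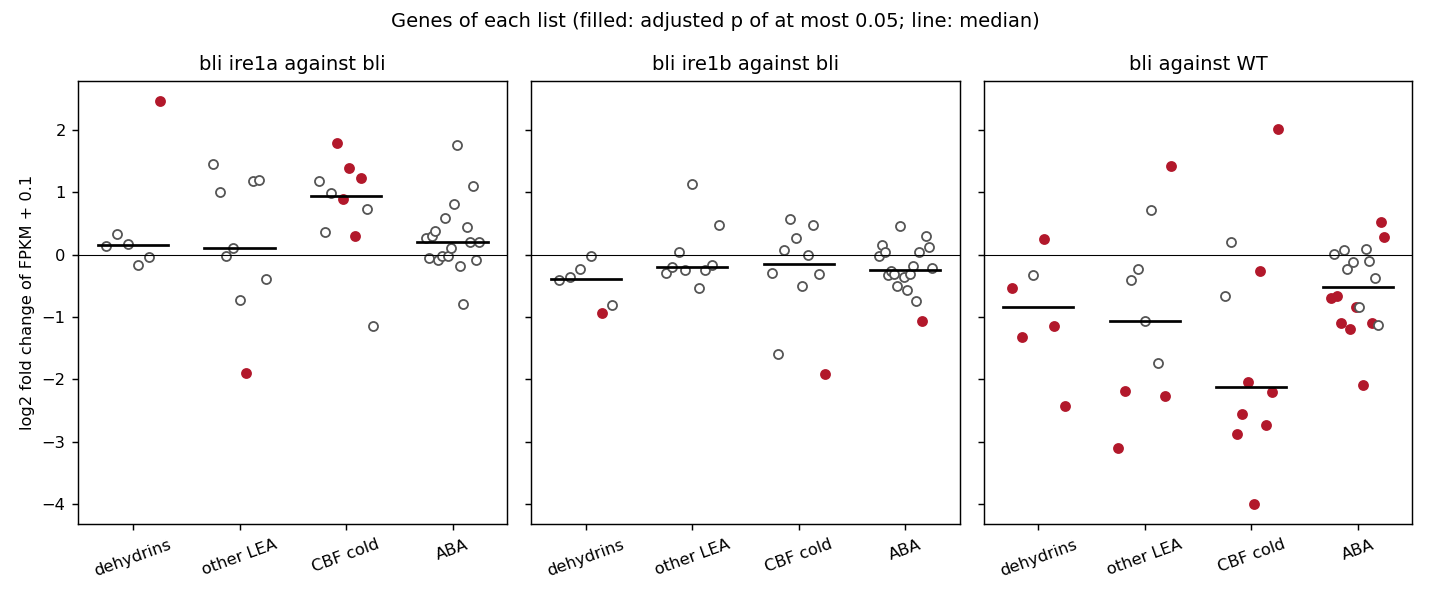
Log2 fold change of FPKM + 0.1 for each gene tested in 4 lists, in *bli ire1a* against *bli*, *bli ire1b* against *bli* and *bli* against WT, filled where the limma adjusted p is at most 0.05, with a line at the median. In *bli* against WT the medians are -0.85 for the dehydrins, -1.07 for other LEA genes, -2.13 for the CBF pathway and -0.52 for the ABA genes.

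Across the 12 libraries *COR47*, *ERD10*, *ERD14*, *LTI30* and *RAB18* ran together. As a description over libraries that share the 4 genotypes, Pearson's r of log2(FPKM + 0.1) was 0.92 for *COR47* with *ERD10*, 0.94 for *COR47* with *ERD14*, 0.93 for *ERD10* with *ERD14* and 0.91 for *COR47* with *LTI30*. It was 0.85 for *ERD10* with *LTI30* and 0.79 for *ERD14* with *LTI30*. *RAB18* had r of 0.74 to 0.81 with these genes, a range that holds the value of *ERD14* with *LTI30*. *HIRD11* ran against all 5, with r of -0.61 to -0.81. *XERO1*, at its low level, had r of -0.35 to 0.30 with the rest.

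Genes most like each dehydrin were searched over the same 12 libraries among 14997 genes that averaged 5 FPKM or more. *COR47* was most like *PIP2A*, a plasma membrane aquaporin (r = 0.986), and *ERD10* was most like *RD29A*, a classic gene of cold and drought listed under its other name *LTI78* (r = 0.987). *ERD14* was most like AT1G73480 (r = 0.965) and had the LEA gene *LEA14* among its nearest 3 (r = 0.953). *LTI30* was most like *PDX1L4*, with *F3H*, an enzyme of flavonoid synthesis, next (r = 0.976 and 0.975). *HIRD11* was most like *PP2-A14* (r = 0.963).

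*RAB18* was most like AT2G18630, AT1G75180 and AT2G27385 (r = 0.972, 0.969 and 0.961). AT2G27385 was also higher in *bli ire1a* than in *bli ire1b*, with a mean of 270 FPKM in *bli ire1a*, 103 in *bli ire1b*, 102 in *bli* and 267 in WT. Its fold difference between the double mutants was smaller than that of *RAB18*, and its means in *bli ire1b* and *bli* were nearly equal. The genes nearest to *XERO1* reached r of 0.877 at most, with *AGL31*. These genes were picked for their likeness, so the values of r are not tests.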

How the data were processed

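RNA-Seq libraries of whole seedlings of *bli ire1a*, *bli ire1b*, *bli* and WT (3 per genotype) were grouped by the genotype in the sample labels. By the methods of the study, the authors filtered the reads, aligned them to TAIR10 with TopHat, ran Cuffdiff and deposited FPKM per gene and library. The submitters' processing notes name a mouse genome build and Bowtie instead, and the program that wrote the FPKM is not given in the sources used here. FPKM are not counts, so no count test was run and no counting error is given for a single value.

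Log2(FPKM + 0.1) of the 20645 genes that averaged 0.5 FPKM or more was tested with limma 3.58.1 in R 4.3.3 (all 4 genotypes in a single fit, 8 residual degrees of freedom, mean-variance trend, two-sided, Benjamini-Hochberg adjustment over all genes tested). A gene was called at an adjusted p of at most 0.05, and "rose" and "fell" are used for calls. Fold changes are on the log2(FPKM + 0.1) scale, which understates the change of low genes. The exact permutation test of 3 libraries against 3 cannot go below p = 0.1 and was not used for single genes. The labels do not say that the libraries of a genotype came from separate cultures, although the methods speak of biological replicates, so p-values measure the spread between these libraries.

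The dehydrins, the gene lists and the tests were chosen with earlier results of these data known. Named were all 7 dehydrins, the 4 list genes with the largest called change in *bli* relative to WT, further list genes on which a result turned, the mutated genes, and the 3 genes most like each dehydrin, of which some are given. *PLP3b*, *RD29A* in WT replicate 2 and the list counts without WT replicate 2 were chosen after values were seen. There were 22 alternatives per dehydrin result: pseudocounts of 1 and 0.01, no filter and an average of 1 FPKM or more, only the 2 genotypes compared, the replicate number as a block, upper-quartile scaling, quantile normalization, no trend, the cutoffs of the study (a 2-fold change in either direction at an unadjusted p of at most 0.05), and each of the 12 libraries left out. The steps were tested on simulated data. Sequences and positions came from the RefSeq annotation of TAIR10.1, and 0 columns of values were left unused.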

Additional observations from a re-analysis of the deposited data

How the results depend on the processing

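The counts of dehydrins called moved by over 1.5 times under some settings. With the cutoffs of the study they were 3 in *bli* against WT, 1 in *bli ire1a* against WT, 3 in *bli ire1b* against WT, 0 in *bli ire1b* against *bli* and 1 in *bli ire1a* against *bli ire1b*, where the fit at adjusted p gave 5, 2, 6, 1 and 3, because the fold cutoff leaves out changes under 2-fold. With only the 2 genotypes compared in the fit, *bli ire1a* against WT gave 1 and *bli ire1a* against *bli ire1b* gave 5, with *ERD10* (limma adjusted p = 0.0222) and *ERD14* (0.0175) also called. Without the mean-variance trend, *bli ire1a* against WT gave 1, and with quantile normalization *bli ire1a* against *bli* gave 2, where *HIRD11* was also called, at -0.35 (limma adjusted p = 0.0171). The causes of these last changes were not tested. Leaving out 1 library at a time gave counts of 4 to 6 in *bli* against WT, 1 to 4 in *bli ire1a* against WT, 5 to 6 in *bli ire1b* against WT, 1 throughout in both *bli ire1a* against *bli* and *bli ire1b* against *bli*, and 2 to 5 in *bli ire1a* against *bli ire1b*.

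Of 792 log2 fold changes of single dehydrins under alternatives (36 results), 737 kept their direction and their side of the threshold, 33 lost the call, 12 gained it and 10 changed sign. The sign changes were all in differences near 0 that were never called. *RAB18* in *bli ire1a* against WT was -0.0019 and -0.09 without *bli ire1a* replicate 2 and 3, and it ranged from -0.35 without WT replicate 2 to 0.24 over the libraries left out. *LTI30* in *bli ire1a* against *bli* was 0.0065 with upper-quartile scaling, 0.021 with quantile normalization and 0.031 without *bli* replicate 3, and over the libraries left out it ranged from -0.13 to 0.091, the value without *bli ire1a* replicate 1. *HIRD11* in *bli ire1b* against *bli* was 0.0012 with upper-quartile scaling and 0.018 without *bli ire1b* replicate 1, and over the libraries left out it ranged from -0.078 to 0.035, the value without *bli* replicate 3, with -0.10 under quantile normalization. Calls gained under scaling were *ERD14* in *bli* against WT (limma adjusted p = 0.0334), *COR47* in *bli ire1a* against WT (0.0474) and *ERD14* in *bli ire1a* against *bli ire1b* (0.0493) with upper-quartile scaling. Scaling moved the split of calls over all genes: in *bli ire1a* against *bli* 46.4% of the genes called were higher as deposited and 59.6% with upper-quartile scaling, and in *bli ire1b* against *bli* 25.3% as deposited and 35.9% with quantile normalization.

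Libraries with the same replicate number were at most weakly alike, since their 18 correlations ranged from -0.108 to 0.0881 and 0 were above 0.1. A weak effect shared by same-numbered libraries was not tested. With the replicate number as a block, the counts were 5, 2, 6, 1, 1 and 3 in the order of comparisons used above and changed no call. Depth limits *XERO1* and the dehydrins AT2G21490 and AT4G39130, for which neither a change nor its absence can be read.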
